A study of Mus musculus with 12 samples.

Results

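The genes described here code for the elastic fibre: Eln, Fbn1, Fbn2, Fbln1, Fbln2, Fbln5, Emilin1, Mfap4, Efemp2 and Ltbp4. They were taken by symbol from a count file of mouse skin RNA-Seq, 10 genes of the 55453 listed, and all 10 passed the filter on low counts that left 18311 genes for testing. The file holds 12 mice in 4 groups of 3. WT PBS and WT BLM are WT mice treated with PBS or with bleomycin, and KO PBS and KO BLM are Thy-1–KO mice treated in the same ways. All were on the C57BL/6 background, and the methods give the Thy-1–KO mice as females of 8 to 12 weeks and the controls as littermates. Bleomycin, a drug that causes fibrosis at the injected site, was injected under the back skin at 10 mg/kg per day. Injections went on for at most 14 days, and day 21 was the day of harvest. The KO mice lack Thy-1, a surface glycoprotein of fibroblasts, in every cell. A mouse is the replicate throughout, and the experiment each mouse came from is not given in the sources used here.

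Elastic fibres give skin its recoil. They have a core of elastin, laid down as soluble tropoelastin and crosslinked by lysyl oxidases, on a scaffold of microfibrils built from fibrillins. Fibulins, the EMILIN and MFAP proteins and the latent TGF-β binding proteins bind to that scaffold or bring tropoelastin to it, and fibrillin microfibrils also hold TGF-β in its latent form. Dermal fibroblasts are the main source of these proteins in skin, and smooth muscle cells and other cells make several of them.

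The promoters are shown for the members whose RefSeq window of 250 bases before the transcription start shares no base with a GENCODE M21 exon, which was so for 4 of the 13 windows of members that were searched. They cover a gene that was higher after bleomycin in WT mice (Efemp2), the gene that was lower after bleomycin in both genotypes (Ltbp4) and a pair with similar profiles that passed the test in neither genotype (Fbln1 and Fbln5). The sequences are RefSeq's for GRCm38.p6, 5′ to 3′ on the gene's strand, and capitals mark the GC box GGGCGG on either strand. They lie at chr19:5473696-5473945 (+) for Efemp2, chr7:27333664-27333913 (−) for Ltbp4, inside the gene before a downstream start, chr15:85205699-85205948 (+) for Fbln1 and chr12:101819120-101819369 (−) for Fbln5.
Efemp2: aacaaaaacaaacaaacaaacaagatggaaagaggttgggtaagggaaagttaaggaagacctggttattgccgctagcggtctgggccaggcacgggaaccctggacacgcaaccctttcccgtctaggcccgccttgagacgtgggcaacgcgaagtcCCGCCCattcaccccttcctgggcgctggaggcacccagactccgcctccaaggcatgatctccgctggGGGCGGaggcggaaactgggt
Ltbp4: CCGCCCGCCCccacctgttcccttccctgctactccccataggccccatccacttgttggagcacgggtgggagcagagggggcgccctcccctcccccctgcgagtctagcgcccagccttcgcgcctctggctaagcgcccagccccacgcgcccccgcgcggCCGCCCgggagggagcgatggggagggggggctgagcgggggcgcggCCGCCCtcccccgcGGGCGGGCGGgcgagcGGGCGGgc
Fbln1: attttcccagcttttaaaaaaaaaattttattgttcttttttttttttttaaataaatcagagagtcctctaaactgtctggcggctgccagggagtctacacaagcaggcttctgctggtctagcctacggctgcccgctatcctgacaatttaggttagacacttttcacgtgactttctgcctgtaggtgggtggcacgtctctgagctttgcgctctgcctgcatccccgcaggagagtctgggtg
Fbln5: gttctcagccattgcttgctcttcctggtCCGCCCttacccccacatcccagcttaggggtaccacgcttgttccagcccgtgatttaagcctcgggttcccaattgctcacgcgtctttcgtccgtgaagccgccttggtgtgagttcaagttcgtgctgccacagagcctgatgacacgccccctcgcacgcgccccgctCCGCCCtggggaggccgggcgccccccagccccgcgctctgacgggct
The Ltbp4 window held 7 GC boxes, counting those that overlap, the Efemp2 and Fbln5 windows held 2 each, and the Fbln1 window held 0. Other windows of the same genes, not shown, differed: 3 and 5 for Ltbp4, 5 and 5 for Efemp2, 0 for Fbln5 and 1 for Fbln1. The bases just after the Fbln5 start shown were not found in a GENCODE M21 transcript of that gene. A GC box was present in 32.7% of the 32851 promoter windows of the same length. The letters G and C made up 79.2% of the Ltbp4 window, 65.2% of the Fbln5 window, 59.2% of the Efemp2 window and 46.4% of the Fbln1 window, against a median of 52.4% over all windows. A TATA box (TATAAA), an AP-1 site (TGACTCA) and a SMAD element (CAGACA) were searched on both strands too. The Fbln1 window held 1 SMAD element, 175 bases before the start, and no other match of these 3 motifs was found in the windows shown. The TATA box was present in 12.4%, the AP-1 site in 4.46% and the SMAD element in 17.1% of all windows.

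Library totals ran from 26473700 to 38890450 counts per mouse, with a median of 31494965. Expression is given as CPM, counts scaled to the TMM-normalized library total. Thy1 itself was counted at 45.6 to 128 CPM in the 6 KO mice and at 104 to 416 CPM in the 6 WT mice. The counts are per gene, so they do not check the deletion. Growing hair transcripts differed widely among the mice. The 24 measured genes of a growing hair list (shaft and sheath) had a mean log2 CPM of 9.56 to 10.1 in WT PBS mice and of 10.1 in KO PBS replicate 136, and KO BLM replicate 141 had 9.06. It lay at 5.14 and 6.15 in the other KO BLM mice, at -0.69 and 2.07 in the other KO PBS mice and at -0.29 to 3.53 in WT BLM mice. All WT PBS mice were thus high and all WT BLM mice low, so hair growth and bleomycin cannot be told apart in WT mice. Fibroblast markers were present in every mouse, with the 9 genes of the list summing to 6218 to 8278 CPM in WT PBS, 10893 to 34931 in WT BLM, 5744 to 18772 in KO PBS and 8891 to 23650 in KO BLM mice. These sums rested largely on Col1a1, Col1a2 and Col3a1. The mean log2 CPM of the list overlapped, at 8.15 to 8.46 in WT PBS and 7.57 to 9.48 in WT BLM mice. Dcn overlapped (504 to 726 against 166 to 954 CPM), and Pi16 was lower in WT BLM (94.5 to 173 against 3.68 to 11.6 CPM).

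Per kilobase of exon, the members spanned a wide range of levels. In WT PBS skin Ltbp4 was highest at 64.2 ± 6.37 CPM per kb (SD, n = 3), followed by Mfap4 at 57.0 ± 22.3, whose mice overlapped those of Ltbp4. Fbln2 at 21.3 ± 2.25, Fbn1 at 15.1 ± 4.29, Fbln1 at 14.7 ± 1.69 and Eln at 13.2 ± 6.38 came next, each overlapping its neighbour in that order. Efemp2 at 6.51 ± 0.550 and Fbln5 at 6.24 ± 0.210 overlapped each other, and Emilin1 at 4.77 ± 0.193 and Fbn2 at 0.569 ± 0.232 did not overlap the genes next to them. Fbn2, the fibrillin of developing tissue, was the lowest member in all 4 groups. In WT BLM skin the order was Fbln2 (94.7 ± 35.3 CPM per kb), Mfap4, Ltbp4, Fbn1, Emilin1, Fbln1, Efemp2, Fbln5, Eln (7.60 ± 4.84) and Fbn2 (1.58 ± 0.985), and only Eln and Fbn2 did not overlap as neighbours. In KO BLM skin Mfap4 was highest at 83.1 ± 49.1 CPM per kb, with Fbln2 at 60.2 ± 25.8 and Ltbp4 at 41.2 ± 3.12.

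The first question was what bleomycin did to these genes in WT skin. Of the 10 members, 6 passed the test, 5 of them higher in WT BLM (Fbn1, Fbn2, Efemp2, Fbln2 and Emilin1) and 1 lower (Ltbp4), while Eln, Fbln1, Fbln5 and Mfap4 did not pass. Of all 18311 genes tested, 34% passed in this comparison, 19.8% higher and 14.1% lower, so many genes of any kind moved. The median log2 fold change of the members was 0.90, against 0.018 over all genes tested. The WT groups did not overlap for 5 members, 4 higher and 1 lower in WT BLM. This was so for 57% of all genes, 28.3% higher and 28.7% lower. In bulk skin, fewer cells of a type and less RNA per cell cannot be told apart.

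**Figure D1:**
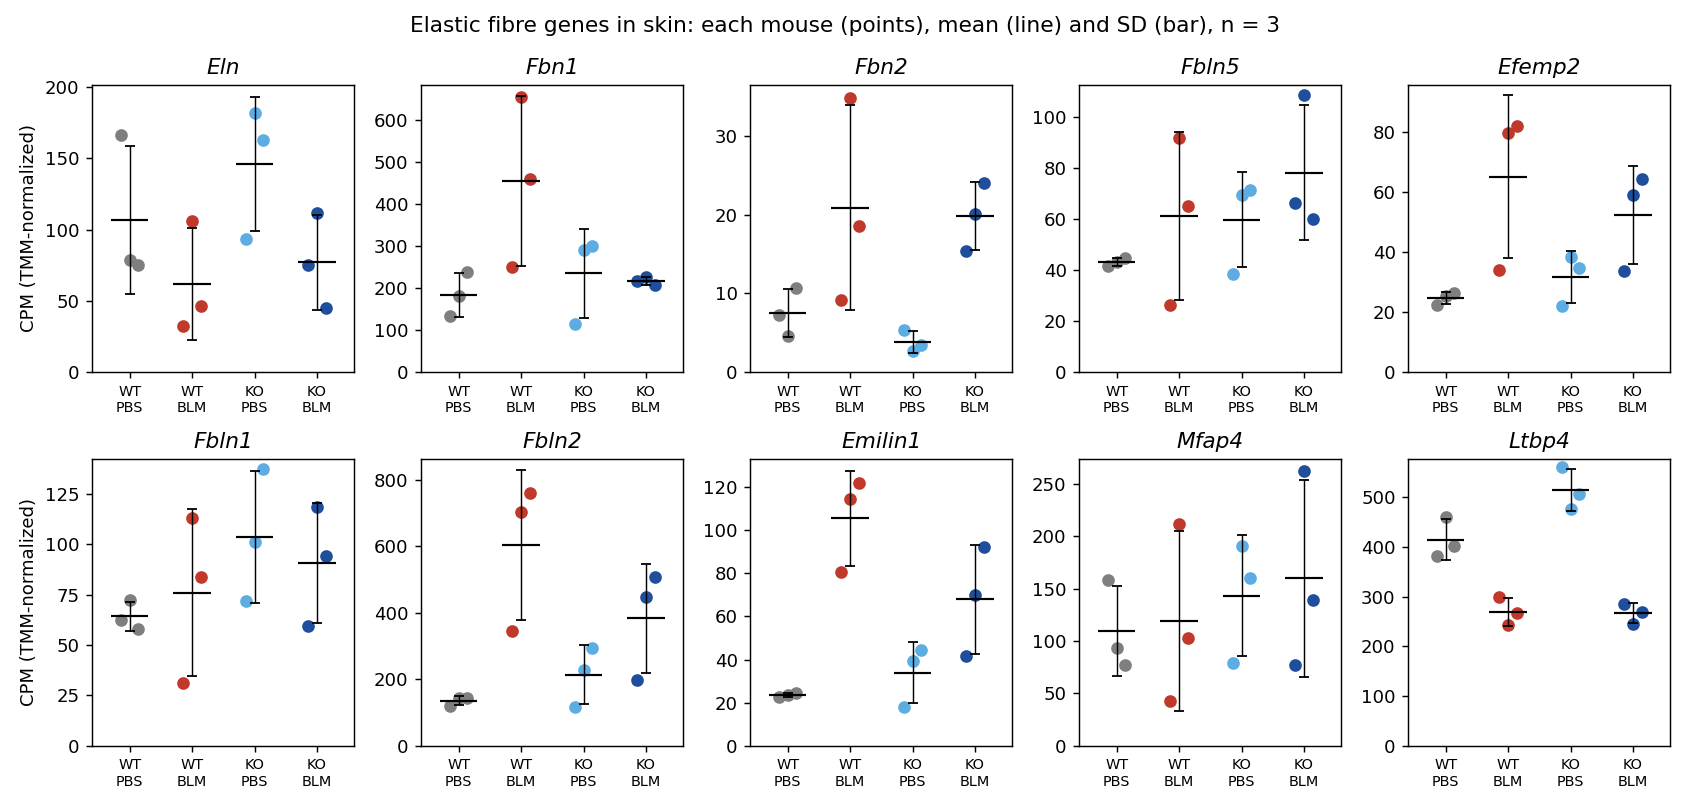
CPM of each elastic fibre gene in the 12 mice, with 1 panel per gene, the 4 groups on the x axis and TMM-normalized CPM on the y axis from 0. Points are mice, the horizontal line is the group mean and the bar its SD (n = 3). The Ltbp4 points of the 6 bleomycin mice (242 to 299 CPM) lie below those of the 6 PBS mice (382 to 562 CPM). The group means of Emilin1 and Fbln2 are highest in WT BLM, with mice that overlap those of KO BLM.

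Eln (chromosome 5, 134702593 to 134747323 in GENCODE M21, GRCm38) codes for elastin, the core of the fibre. It was counted at 166, 78.8 and 74.9 CPM in WT PBS replicates 159, 160 and 161 and at 32.1, 106 and 46.6 CPM in WT BLM replicates 145, 146 and 147. The groups overlapped, because WT BLM replicate 146 was above the lower pair of WT PBS mice. The log2 fold change was -0.79 (SE 0.50, 95% interval -1.90 to 0.32, adjusted p = 0.234). In KO mice Eln was at 93.0, 182 and 163 CPM in KO PBS replicates 136, 137 and 139 and at 74.8, 111 and 45.1 CPM in KO BLM replicates 141, 143 and 144. The KO groups overlapped as well, and the log2 fold change was -0.92 (SE 0.50, interval -2.03 to 0.19, adjusted p = 0.324). Elastin transcripts were not detectably changed in either genotype at this spread, and both intervals run from a fall of more than 3-fold to a small rise.

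The fibrillins, which build the microfibril, were higher in WT mice given bleomycin. Fbn1 (chromosome 2, 125300594 to 125507993), the main fibrillin of adult tissue, was at 133, 180 and 237 CPM in WT PBS and at 249, 653 and 459 CPM in WT BLM mice, here and below in the order of replicates given for Eln. The groups did not overlap, although WT BLM replicate 145 was close to the highest WT PBS mouse, and the log2 fold change was 1.30 (SE 0.41, adjusted p = 0.0347). Leaving out 1 of the WT mice 146, 147, 159, 160 or 161 ended this call, with adjusted p values of 0.116, 0.0761, 0.119, 0.104 and 0.0556. Fbn1 shares 2442 exon bases with Gm9913 on the opposite strand, which was counted at 0 to 14 reads. In KO mice Fbn1 was at 113, 290 and 300 CPM after PBS and at 217, 226 and 207 CPM after bleomycin, so that the KO BLM mice lay between the KO PBS mice (log2 fold change -0.11, SE 0.40, adjusted p = 0.897).

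Fbn2 was the member with the widest range, 12.9-fold between its lowest and highest mouse. It was at 7.30, 4.57 and 10.7 CPM in WT PBS mice and at 9.16, 34.9 and 18.6 CPM in WT BLM mice, and the groups overlapped because WT BLM replicate 145 lay below WT PBS replicate 161. The log2 fold change of 1.47 (SE 0.47, adjusted p = 0.0373) was no longer past the threshold without WT mouse 146 (0.88, adjusted p = 0.148), 147 (adjusted p = 0.0687), 159 (0.0979) or 160 (0.133), or without KO BLM replicate 143 (0.0517), or with only the WT groups in the fit (0.0524). In KO mice Fbn2 was at 5.35, 2.71 and 3.40 CPM after PBS and at 15.3, 20.1 and 24.1 CPM after bleomycin, with no overlap. The log2 fold change was 2.38 (SE 0.49, adjusted p = 0.0716), which missed the threshold in edgeR and passed it in DESeq2 (adjusted p = 9.88e-05). It passed in edgeR too when KO mouse 136 (0.0194) or 141 (0.0321) was left out.

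Fbln5 and Efemp2 code for fibulin-5 and fibulin-4, which bind tropoelastin and lysyl oxidases and bring elastin to the microfibril. In WT mice Efemp2 rose and Fbln5 did not pass the test, and whether the changes of the genes differ was not tested. Fbln5 (chromosome 12, 101746565 to 101819055) was tightly grouped in WT PBS mice at 41.7, 43.1 and 44.6 CPM and spread in WT BLM mice at 26.3, 91.9 and 65.2 CPM. The WT BLM mice thus lay on both sides of the WT PBS mice (log2 fold change 0.50, SE 0.40, adjusted p = 0.344). In KO mice Fbln5 was at 38.5, 69.6 and 71.2 CPM after PBS and at 66.1, 108 and 59.9 CPM after bleomycin, again overlapping (0.39, SE 0.40, adjusted p = 0.605).

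Efemp2 (chromosome 19, 5473954 to 5482517) was at 22.3, 25.3 and 26.3 CPM in WT PBS and at 34.0, 79.7 and 82.0 CPM in WT BLM mice. The groups did not overlap, and the log2 fold change was 1.40 (SE 0.35, adjusted p = 0.0168). The call was lost without WT mouse 146 (0.0510), 147 (0.0557), 159 (0.0638) or 160 (0.0599). In KO mice Efemp2 was at 21.9, 38.5 and 34.8 CPM after PBS and at 33.6, 59.1 and 64.4 CPM after bleomycin, where the lowest KO BLM mouse, replicate 141, was below the upper KO PBS mice (0.72, SE 0.35, adjusted p = 0.274). Efemp2 shares 173 exon bases with Mus81 on the opposite strand, and whether the counting used strand is not given in the sources used here. Mus81 was counted at 514 to 784 reads and Efemp2 at 658 to 2498.

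Fbln1 and Fbln2 code for fibulin-1 and fibulin-2, which bind fibronectin, basement membrane proteins and elastic fibres. Fbln2 had the largest rise in CPM among the members, and Fbln1 did not pass the test. Fbln2 (chromosome 6, 91212455 to 91272540) was at 119, 143 and 145 CPM in WT PBS and at 345, 704 and 760 CPM in WT BLM mice. The lowest WT BLM mouse was thus more than 2 times the highest WT PBS mouse, and the fold was 4.44 (log2 fold change 2.15, SE 0.44, adjusted p = 0.00844). In KO mice Fbln2 was at 118, 228 and 294 CPM after PBS and at 197, 447 and 506 CPM after bleomycin, with KO BLM replicate 141 inside the range of the KO PBS mice (0.85, SE 0.42, adjusted p = 0.287).

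Fbln1 (chromosome 15, 85205949 to 85286535) was at 62.5, 72.3 and 57.9 CPM in WT PBS and at 31.2, 113 and 84.0 CPM in WT BLM mice. It was at 72.1, 101 and 137 CPM in KO PBS and at 59.3, 119 and 94.1 CPM in KO BLM mice. The bleomycin mice spread to both sides of the PBS mice in WT skin and overlapped them in KO skin. The log2 fold change was 0.24 in WT mice (SE 0.41, adjusted p = 0.665) and -0.19 in KO mice (SE 0.41, adjusted p = 0.819).

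Emilin1 (chromosome 5, 30913402 to 30921277) codes for a glycoprotein at the border of elastin and microfibrils that also restrains the processing of TGF-β. It had the smallest adjusted p of the members in WT mice. It was at 22.5, 23.7 and 24.4 CPM in WT PBS and at 80.5, 114 and 122 CPM in WT BLM mice, which did not overlap. The fold was 4.49 (log2 fold change 2.17, SE 0.36, adjusted p = 0.00487). In KO mice Emilin1 was at 17.8, 39.3 and 44.5 CPM after PBS and at 41.7, 69.9 and 92.2 CPM after bleomycin. The KO groups touched, since KO BLM replicate 141 was below KO PBS replicate 139 (fold 2.01, adjusted p = 0.169).

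Mfap4 (chromosome 11, 61485431 to 61488900) codes for a microfibril-associated glycoprotein that binds elastin and fibrillin. It was at 158, 93.5 and 77.1 CPM in WT PBS, 42.7, 212 and 103 CPM in WT BLM, 79.2, 191 and 160 CPM in KO PBS and 77.1, 263 and 140 CPM in KO BLM mice. All groups overlapped. The log2 fold change with bleomycin was 0.12 in WT mice (interval -1.19 to 1.44, adjusted p = 0.886) and 0.16 in KO mice (interval -1.16 to 1.47, adjusted p = 0.905), so that changes of more than 2-fold in either direction lie inside both intervals. It shares 89 exon bases with Mapk7 on the opposite strand, which was counted at 783 to 1331 reads.

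Ltbp4 (chromosome 7, 27305136 to 27337692) codes for a latent TGF-β binding protein that is needed for elastin assembly. It was the member that passed the test in both genotypes, and it was lower after bleomycin. It was at 382, 461 and 402 CPM in WT PBS and at 299, 242 and 267 CPM in WT BLM mice, a log2 fold change of -0.62 (SE 0.14, adjusted p = 0.0118). In KO mice it was at 562, 477 and 506 CPM after PBS and at 285, 245 and 269 CPM after bleomycin, a log2 fold change of -0.95 (SE 0.14, adjusted p = 0.0341). Every one of the 6 bleomycin mice was below every one of the 6 PBS mice, which was so for 1.08% of the genes tested and for no other member. KO PBS replicate 136 and KO BLM replicate 141, which held the most growing hair transcripts of their groups, lay with their own treatment group for Ltbp4. Replicate 141 is 1 mouse. With the hair list as a covariate the log2 fold change of Ltbp4 was -0.48 in WT mice (adjusted p = 0.462) and -1.0 in KO mice (adjusted p = 0.00565).

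**Figure D2:**
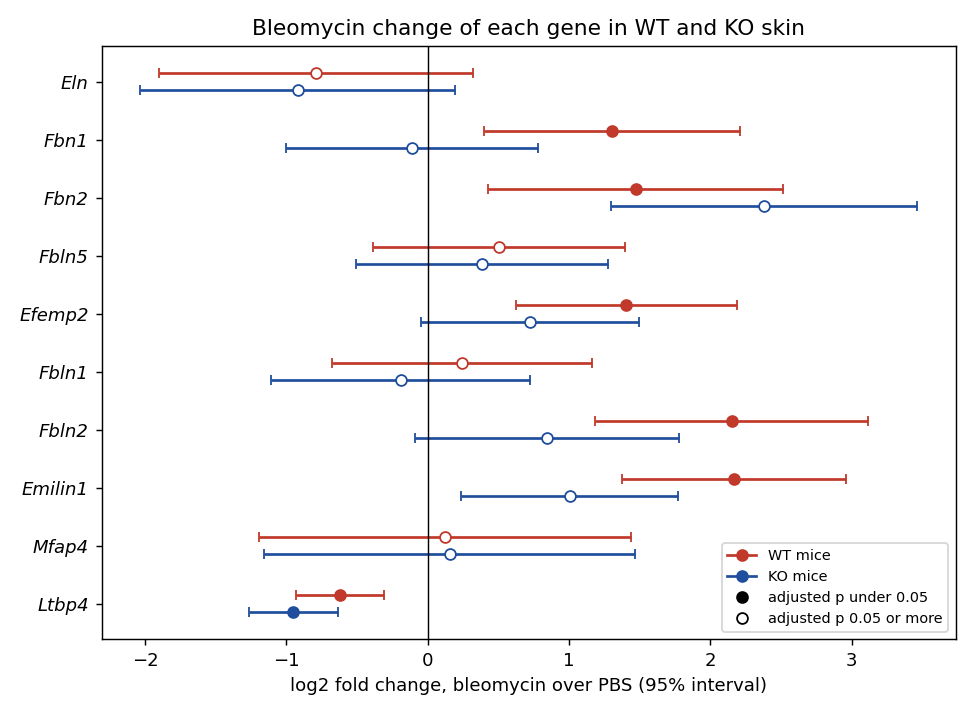
Log2 fold change of bleomycin over PBS on the x axis for each elastic fibre gene on the y axis, in WT mice (red) and KO mice (blue), from edgeR with 3 mice per group. Bars are 95% intervals and filled points have an adjusted p under 0.05. Among the filled points, 5 WT points lie above 0 and Ltbp4 lies below 0 in both genotypes.

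The calls in WT mice differed in how much they rested on single animals. Those of Fbln2, Emilin1 and Ltbp4 held without each of the 12 mice in turn, and those of Fbn1, Fbn2 and Efemp2 did not, as given above. Within WT BLM, replicate 145 was the lowest of the 3 mice for all members except Ltbp4, and it also had the lowest mean log2 CPM of the fibroblast list, 7.57. None of the 6 members was called in WT mice once the hair list was a covariate, where 0.0765% of all genes were called. The direction of each stayed the same. The log2 fold changes were 2.28 for Fbn2 (adjusted p = 0.202), 1.28 for Fbln2 (0.456), 1.23 for Emilin1 (0.288), 0.85 for Efemp2 (0.610), 0.74 for Fbn1 (0.755) and -0.48 for Ltbp4 (0.462). That of Fbn2 was thus larger than without the covariate and the others were nearer to 0, and a call lost in this fit does not show that a change is absent.

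Markers of cells that could carry these transcripts differed with treatment in WT mice as well. Of the 9 fibroblast markers, 4 were higher and 1 lower in WT BLM. Of the 9 smooth muscle markers 3 were higher and 1 lower, with sums of 960 to 1044 CPM in WT PBS and 2604 to 4045 CPM in WT BLM mice. These sums rested largely on Des, at 251 to 314 CPM in WT PBS and 1630 to 3018 CPM in WT BLM mice. Myh11 overlapped (46.2 to 84.8 against 34.8 to 121 CPM) and Smtn was lower (247 to 315 against 119 to 139 CPM), so the list did not move as a whole. Macrophage markers were higher for 10 of 11 (436 to 1017 against 2474 to 3602 CPM), skeletal muscle markers for 11 of 12 (6289 to 7084 against 21646 to 43917 CPM) and endothelial markers for 5 of 8 (180 to 197 against 207 to 541 CPM). The mean log2 CPM of the endothelial list overlapped, at 4.19 to 4.35 in WT PBS and 4.17 to 5.68 in WT BLM mice. Growing hair genes were lower for 13 of 24 (50625 to 73117 against 62.8 to 867 CPM), with 3 of the 24 at 0 in at least 1 WT BLM mouse (Krt26, Krt34 and Krt86). Keratinocyte markers were higher for 1 of 8, with sums that did not overlap (9638 to 11753 against 12426 to 31935 CPM). The mean log2 CPM of that list did overlap (9.59 to 9.90 against 9.75 to 10.9). Krt5 overlapped (3565 to 3938 against 2487 to 5602 CPM) and Trp63 was lower (246 to 294 against 133 to 236 CPM), so this list did not move as a whole either. The sums of the adipocyte list overlapped (1112 to 1561 against 625 to 3211 CPM). Set against the mean log2 CPM of the fibroblast list in the same mouse, Eln was lower in WT BLM without overlap (means -1.67 and -2.88). Fbn1, Fbn2, Fbln2, Emilin1 and Efemp2 were higher without overlap, and Fbln1, Fbln5, Mfap4 and Ltbp4 overlapped. On this measure the WT groups did not overlap for 22.7% of all genes, with 11.3% lower in WT BLM. The part of any of these cell types in the changes of the elastic fibre genes was not tested.

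In KO mice 1 of the 10 members, Ltbp4, passed the test with bleomycin. Over all genes 0.306% passed, and the members' median log2 fold change was 0.27 against -0.0070 over all genes tested. With DESeq2 the members called were Fbn2 and Ltbp4, 2 of 10, where 6.14% of all genes were called. The KO groups did not overlap for the same pair of genes, Fbn2 higher and Ltbp4 lower, and this was so for 19.3% of all genes. The adjusted p of Ltbp4 rose above 0.05 when KO mouse 137 (0.0687), 139 (0.146), 143 (0.138) or 144 (0.146) was left out, and when WT BLM replicate 147 (0.0638) or WT PBS replicate 159, 160 or 161 (0.0677, 0.0609 and 0.0644) was left out. With only the KO groups in the fit it was 0.275. Its log2 fold change stayed between -0.89 and -1.0 in these fits. KO PBS replicate 136 stood apart from its group in marker lists too, with 5744 CPM summed over the fibroblast list against 15195 and 18772 CPM, and 8123 CPM over the skeletal muscle list against 28810 and 33452 CPM. The part of these in the KO comparison was not tested.

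Without KO PBS replicate 136 and KO BLM replicate 141, the mice of each KO group that carried the most growing hair transcripts, 3 members were called in KO mice and 22.3% of all genes. Beside Ltbp4 these were Fbn2 (adjusted p = 0.0160) and Emilin1 (adjusted p = 0.0167), both higher in KO BLM. The same 3 members were called with the hair list as a covariate, where Fbn2 had an adjusted p of 0.0232 and Emilin1 of 0.0210 and 9.2% of all genes were called. The remaining KO groups hold 2 mice each.

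**Figure D3:**
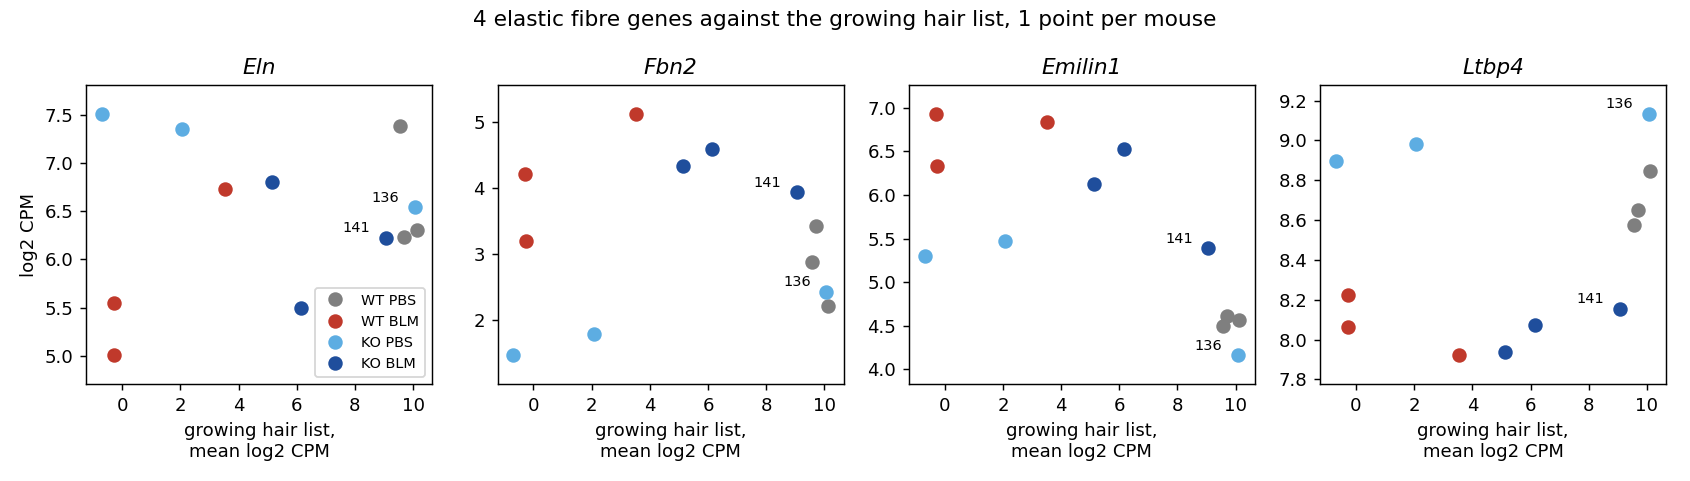
Log2 CPM of Eln, Fbn2, Emilin1 and Ltbp4 on the y axes against the mean log2 CPM of the growing hair list on the x axis, with 1 point per mouse and colors for the 4 groups. The WT PBS mice lie between 9.56 and 10.1 on the x axis together with KO PBS replicate 136, and KO BLM replicate 141 lies at 9.06. In the Ltbp4 panel the bleomycin and PBS mice are separated on the y axis at both ends of the hair scale, where the upper end holds 1 bleomycin mouse, replicate 141. In the Emilin1 panel replicates 136 and 141 are the lowest of their groups.

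The genotypes were then compared within each treatment. Between KO PBS and WT PBS, 0 of the 10 members passed the edgeR test, 1 had an unadjusted p under 0.05 and 0 passed in DESeq2. Of all genes 0.0655% passed in edgeR, 20.4% had an unadjusted p under 0.05 and 3.83% passed in DESeq2. The member with the unadjusted p was Ltbp4, with 477 to 562 CPM in KO PBS and 382 to 461 CPM in WT PBS mice (log2 difference 0.31, SE 0.14, adjusted p = 0.245). Its groups did not overlap, and this was so for 18.9% of all genes. The next was Fbn2, at 2.71 to 5.35 CPM in KO PBS and 4.57 to 10.7 CPM in WT PBS mice (-0.98, SE 0.47, adjusted p = 0.262). Without replicates 136 and 141, Emilin1 (0.83, adjusted p = 0.00730) and Fbln2 (0.94, adjusted p = 0.0314) were higher in KO PBS than in WT PBS mice, where 40.9% of all genes passed. The 2 remaining KO PBS mice had hair list values of -0.69 and 2.07, against at least 9.56 in WT PBS mice.

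Between KO BLM and WT BLM, 0 of the 10 members passed, 1 had an unadjusted p under 0.05 and 0 passed in DESeq2. Of all genes 0.0928% passed in edgeR, 16.6% had an unadjusted p under 0.05 and 3.34% passed in DESeq2. The member with the unadjusted p was Fbn1, at 207 to 226 CPM in KO BLM and 249 to 653 CPM in WT BLM mice, with a log2 difference of -1.07 (SE 0.41, interval -1.97 to -0.16, adjusted p = 0.270). Its groups did not overlap, as for 27.5% of all genes. Fbln2 (-0.65, adjusted p = 0.426) and Emilin1 (-0.64, adjusted p = 0.359) had lower means in KO BLM, with overlapping mice. For Ltbp4 the difference was -0.017 with an interval of -0.33 to 0.29 (adjusted p = 0.959), and for Fbn2 it was -0.075 with an interval of -1.10 to 0.95 (adjusted p = 0.944).

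The difference between the bleomycin responses, KO minus WT, asks whether the genotypes responded unequally. No member passed in edgeR (0 of 10, with 0% of all genes called), 2 had an unadjusted p under 0.05 as did 31.1% of all genes, and 0 passed in DESeq2, which called 18.5% of all genes. Those 2 were Fbn1 (-1.42, SE 0.57, unadjusted p = 0.0315, adjusted p = 0.130) and Emilin1 (-1.16, SE 0.49, unadjusted p = 0.0373, adjusted p = 0.140). Fbln2 had a similar value of -1.31 (SE 0.59, adjusted p = 0.163). For Eln, Fbln5 and Mfap4 the differences were -0.13, -0.12 and 0.033, with intervals reaching from -1.69 to 1.43, from -1.38 to 1.14 and from -1.82 to 1.89. The response of a gene past the threshold in WT and not in KO mice is therefore not shown to differ between them.

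This test depended on 1 mouse. Without KO PBS replicate 136, Fbn1 (-1.74, adjusted p = 0.0139), Emilin1 (-1.46, adjusted p = 0.0124) and Fbln2 (-1.59, adjusted p = 0.0397) passed the test of the difference, all with the lower log2 fold change in KO mice. In that fit 39.9% of all genes passed, so many genes of any kind did so. Without replicates 136 and 141 the same members passed as well, with adjusted p values of 0.0251, 0.00723 and 0.0406, where 38.6% of all genes passed. There the log2 fold changes with bleomycin in KO mice were -0.45 for Fbn1, 0.95 for Emilin1 and 0.87 for Fbln2. In WT mice they were 1.30, 2.16 and 2.15 in the same fit. Replicate 136 was the lowest KO PBS mouse for Fbn1, Fbln2 and Emilin1, and it held the growing hair transcripts of the WT PBS mice. With the hair list as a covariate 0 members passed (0% of all genes), and the differences were -0.55 for Fbn1, -0.11 for Fbln2 and 0.15 for Emilin1.

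The members fell into profiles of unlike shape over the 12 mice. Likeness was measured as the root mean square difference of log2 CPM, after each gene was centred on its own mean, and is a description. The closest pair was Fbln2 and Emilin1, which differed by 0.19 per mouse on the log2 scale, followed by Fbln1 and Fbln5 (0.31), Fbln2 and Efemp2 (0.33) and Fbln1 and Mfap4 (0.37). The farthest were Eln and Fbn2 (1.62), Fbn2 and Ltbp4 (1.52), Eln and Emilin1 (1.44) and Eln and Fbln2 (1.39). Among the members, Mfap4 (0.60), Fbln1 (0.63) and Ltbp4 (0.67) were nearest to Eln.

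**Figure D4:**
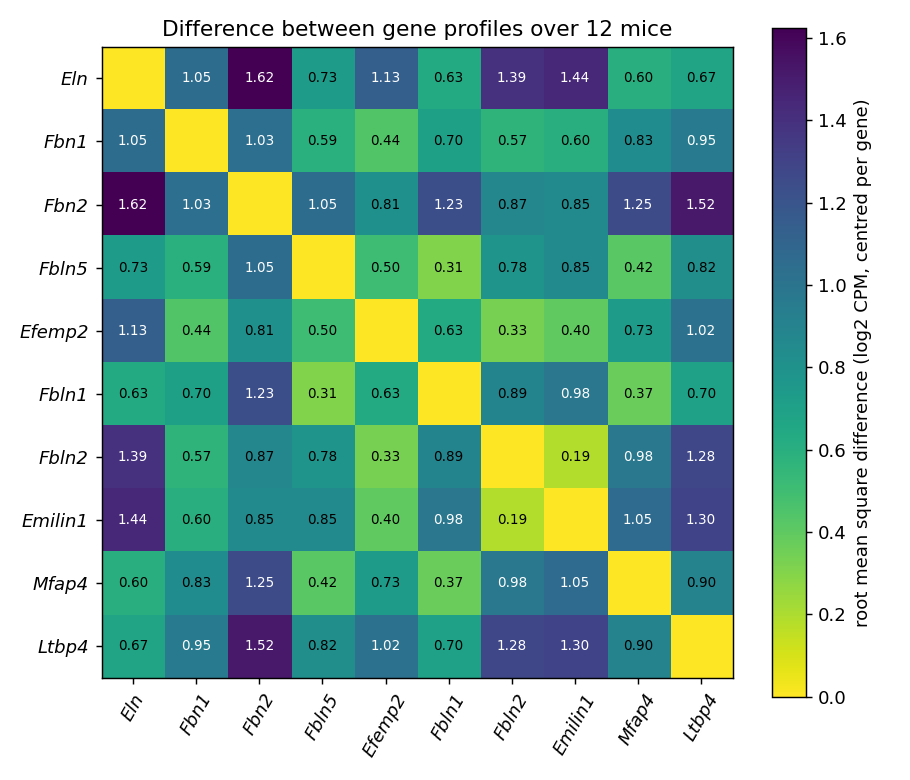
Root mean square difference between the centred log2 CPM profiles of each pair of elastic fibre genes over the 12 mice, with genes on both axes and a color scale from 0 (yellow) to 1.62 (dark). Fbln2 and Emilin1 differ least (0.19), and the row of Eln is dark against Fbn2, Emilin1 and Fbln2.

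Outside the members, the genes with a profile most like that of Eln among 13192 candidates were Paqr6 (0.36), Wscd2 (0.37), Wdr66 (0.39), Dnah1 (0.39) and Sgip1 (0.40), then Soat1, Clec11a, Mmp27, Mgst1 and Rad51b (0.41 to 0.43). The median over the candidates was 0.83. The members were not among the candidates. In the same search for other members, genes of the related lists described next were also near: Mfap2 was the nearest to Mfap4 (0.33), Loxl1 the third for Fbln2 (0.20) and Mfap5 the fifth for Fbn1 (0.23). These 3 were chosen after their values were seen. The genes nearest to Ltbp4 were St6galnac2 (0.19), Dsg3 (0.19) and Aldh3a2 (0.19), which are in none of the related lists. All values share the same 12 libraries.

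Other genes of the pathway were read from 4 lists that hold 76 genes, 71 of them tested. In WT mice 37 of the 71 passed, 34 higher and 3 lower in WT BLM, which is 52.1% against 34% of all genes. With the hair list as a covariate 1 of the 71 was called in WT mice (Timp1), and 0.0765% of all genes. The number fell to 20 without WT PBS replicate 159 or 160 and to 24 without WT BLM replicate 147, where 14%, 13.9% and 17.6% of all genes were called. The counts of the separate lists given next for WT mice are all from the fit that includes every mouse and no covariate. In KO mice 2 passed in edgeR (2.82% against 0.306% of all genes) and 17 in DESeq2 (23.6% of the 72 it could test, against 6.14%). The 5 genes with too few counts for the test were Tll2, Mmp7, Elane, Serpina1a and Serpina1b.

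The crosslinking list, the lysyl oxidases that join elastin and collagen, the proteases that activate them and the copper transporter Atp7a, had 5 of 8 genes higher in WT BLM. This was 62.5%, against 34% of all genes called in either direction. Lox was at 13.1 to 24.7 CPM in WT PBS and 84.5 to 163 CPM in WT BLM mice (log2 fold change 2.78, adjusted p = 0.00439). Loxl3 (3.04, adjusted p = 0.00302), Loxl2 (2.04, adjusted p = 0.00557) and Loxl1 (1.92, adjusted p = 0.0112) were higher as well. The median of the list was 1.61 in WT and 0.37 in KO mice. In KO mice 0 genes passed (0.306% of all genes), 3 had an unadjusted p under 0.05 (20% of all genes) and 1 passed in DESeq2 (6.14% of all genes). In the KO groups Lox was at 15.2 to 51.1 CPM after PBS and 47.3 to 65.5 CPM after bleomycin. These enzymes passed the test in WT mice and Eln did not, and the difference between the genes was not tested.

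The microfibril and assembly list had 14 of 33 genes past the threshold in WT mice, 12 higher and 2 lower. This was 42.4%, not far from the 34% of all genes. Those with the smallest adjusted p were Fn1 (2.75, adjusted p = 0.00329), which codes for fibronectin, on which fibrillin is laid down, Hspg2 (1.15, adjusted p = 0.00404), which codes for perlecan, Ltbp2 (2.79, adjusted p = 0.00477) and Bgn (1.78, adjusted p = 0.00536), which codes for biglycan. Ltbp2 was at 9.22 to 14.1 CPM in WT PBS and 61.7 to 114 CPM in WT BLM mice, opposite in direction to Ltbp4. Hmcn1 (-1.43, adjusted p = 0.0332) and Ltbp3 (-0.83, adjusted p = 0.0360) were the lower pair, and they are named after their values were seen. In KO mice 1 of the 33 passed, Hmcn2, which codes for hemicentin-2 and was at 26.9 to 76.9 CPM after PBS and 5.94 to 10.3 CPM after bleomycin (-2.70, adjusted p = 0.0414). The median of the list was 0.79 in WT and -0.37 in KO mice, and the medians were not compared by a test. For the difference of the responses, 0 of the 33 genes passed in edgeR (0% of all genes). An unadjusted p under 0.05 was found for 16 (31.1% of all genes), and 12 passed in DESeq2 (18.5% of all genes).

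The elastin degradation list holds elastases, cathepsins and their inhibitors. In WT mice 10 of its 17 tested genes passed, 9 higher and 1 lower, which is 58.8% against 34% of all genes. Timp1, an inhibitor of metalloproteases, was at 3.22 to 4.06 CPM in WT PBS and 51.2 to 76.6 CPM in WT BLM mice (4.15, adjusted p = 0.00215). Ctss, an elastin-cleaving cathepsin (3.42, adjusted p = 0.00431), Mmp9 (4.10, adjusted p = 0.00917) and Slpi, an inhibitor of neutrophil elastase (3.86, adjusted p = 0.0118), were higher too, so that enzymes and inhibitors both rose. Ctss is also made by macrophages, whose markers are given above. Timp3 (-0.96, adjusted p = 0.0360) was the lower gene, named after its value was seen. In KO mice Timp1 passed, at 2.66 to 6.63 CPM after PBS and 24.0 to 71.6 CPM after bleomycin (3.30, adjusted p = 0.0305), and the other 16 did not.

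The list of elastin and fibrillin receptors had 8 of 13 genes higher in WT BLM. This was 61.5%, against 34% of all genes called in either direction. Itga5, the fibronectin receptor subunit, was at 29.2 to 31.3 CPM in WT PBS and 137 to 175 CPM in WT BLM mice (2.38, adjusted p = 0.00215). Itgb1 (1.13, adjusted p = 0.00439), Itga9 (1.53, adjusted p = 0.00561) and Itga4 (2.42, adjusted p = 0.00955), other integrin subunits, were higher as well. In KO mice 0 of the 13 passed in edgeR (0.306% of all genes), 4 had an unadjusted p under 0.05 (20%) and 2 passed in DESeq2 (6.14%). Between KO BLM and WT BLM, 0 of the 71 genes of the 4 lists passed in edgeR (0.0928% of all genes), 14 had an unadjusted p under 0.05 (16.6% of all genes) and 6 passed in DESeq2 (8.45% against 3.34% of all genes). Between KO PBS and WT PBS the numbers were 0 (0.0655% of all genes), 19 (20.4%) and 5 (6.94% of 72, against 3.83% of all genes).

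**Figure D5:**
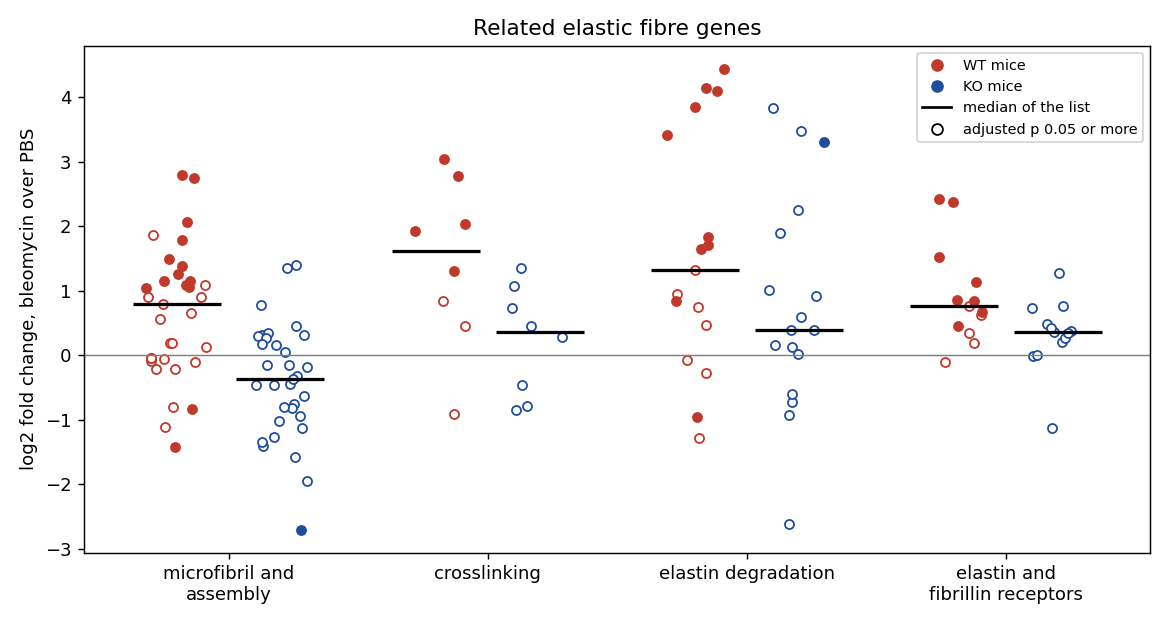
Log2 fold change of bleomycin over PBS on the y axis for the tested genes of the 4 related lists on the x axis, in WT mice (red) and KO mice (blue). Each point is a gene, filled where the adjusted p is under 0.05, and black lines are medians. In WT mice 37 of 71 points are filled, and in KO mice the filled points are Timp1 above 0 and Hmcn2 below 0.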

How the data were processed

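RNA was taken from the skin of 12 mice, and the authors made stranded mRNA libraries and counted reads per gene. The deposited values are whole-number counts without normalization for 55453 symbols. The submitters' processing notes name GRCm38.p6 and MultiQC 1.7. The aligner, the counter and the use of strand in counting are not given in the sources used here, and the age, the dose and the injections come from the methods. Groups come from the sample titles.

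Counts were filtered with filterByExpr (at least 10 counts, 15 in total), scaled with TMM factors and fitted by edgeR 4.0.16 (R 4.3.3), using a quasi-likelihood model of 4 group means over all 12 mice. Adjusted p values are Benjamini-Hochberg over the 18311 genes tested, with a threshold of 0.05. The standard error is the log2 fold change over the square root of F, and intervals are 95%. The biological coefficient of variation was 34.9%, which with 3 mice per group limits precision, and the smallest two-sided p of an exact permutation test is 0.1. Log2 CPM used a prior count of 2. The steps were tested on simulated data in which genes varied independently, so that test does not cover the hair growth differences that genes share here. DESeq2 1.42.0, RLE and upper-quartile factors, no filter, a mean of at least 1 CPM, only the groups compared, each mouse left out, replicates 136 and 141 left out, and the hair list as a covariate were alternatives.

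Positions and exon lengths come from GENCODE M21, and promoters from RefSeq, which had entries outside chromosome 18 for 7 members and none for Eln and Mfap4. All members are named. Of each related list, up to 4 genes with the smallest adjusted p per comparison are named. Genes like Eln are the 10 nearest whose mean log2 CPM is 1 or more and whose name is no model number. The members and lists were chosen with earlier results of these data known, and no gene list is independent evidence. The labels name no batch or litter. Python 3.11.15 with matplotlib 3.10.9 drew the plots.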

Additional observations from a re-analysis of the deposited data

How the results depend on the processing

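No paired analysis was possible because every mouse has its own number, so no replicate block could be fitted. The share of all genes called in the same fit stands in brackets. Of the elastic fibre genes, DESeq2 called 2 in KO BLM against KO PBS (6.14%), as did the fit without a filter (0.507%). The fit of only the 2 groups compared called 0 (0%). Without replicates 136 and 141 the counts were 3 in KO BLM against KO PBS (22.3%), 2 in KO PBS against WT PBS (40.9%) and 3 for the difference of the responses (38.6%). With the hair list as a covariate they were 3 in KO (9.2%) and 0 in WT mice (0.0765%). Leaving out each mouse in turn gave 3 to 6 members in WT mice (13.9% to 45.7%). It was 3 without 146 (19.8%), 147 (17.6%), 159 (14%) or 160 (13.9%). It gave 0 to 2 in KO mice (0% to 14%), 0 to 1 in KO PBS against WT PBS and 0 to 3 for the difference. The 1 and the 3 came without replicate 136 (36.7% and 39.9%). The causes were not tested.

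Of the related genes, 70 to 76 could be tested in each fit, and the share of all genes called stands in brackets. KO BLM against KO PBS gave 17 with DESeq2 (6.14%), 1 with upper-quartile factors (0.186%), 5 without a filter (0.507%), 0 with only the 2 groups compared (0%), 23 without replicates 136 and 141 (22.3%), 14 with the hair covariate (9.2%) and 0 to 16 leaving out each mouse (0% to 14%). KO BLM against WT BLM gave 6 with DESeq2 (3.34%), 6 without both mice (4.36%), 1 with the hair covariate (0.137%) and 0 to 13 leaving out each mouse (6.89% at 13). KO PBS against WT PBS gave 5 with DESeq2 (3.83%), 33 without both (40.9%) and 0 to 28 (36.7% at 28). WT BLM against WT PBS gave 1 with the hair covariate (0.0765%) and 20 to 43 (13.9% and 14% at 20, 45.7% at 43). The difference of the responses gave 19 with DESeq2 (18.5%), 33 without both (38.6%) and 0 to 37 (39.9% at 37). The upper ends of these ranges came without replicate 136.

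No value of a member that had passed the test changed direction in these alternatives, and the changes below are of values that had not passed. With the hair covariate the log2 values were 0.019 for Efemp2 in KO BLM against WT BLM, -0.060 for Fbln1 and -0.50 for Mfap4 in WT mice and 0.18 for Fbn1 in KO mice. In KO PBS against WT PBS they were -0.070 for Efemp2, -0.22 for Emilin1, -0.031 for Fbln2, -0.15 for Fbn1 and -0.18 for Mfap4. For the difference of the responses they were 0.088 for Efemp2, 0.24 for Eln, 0.15 for Emilin1, 0.41 for Fbln5 and -0.12 for Fbn2. Fbn2 was 0.083 in KO BLM against WT BLM without both mice, Ltbp4 was 0.0089 there without a filter, and Mfap4 was -0.012 for the difference with upper-quartile factors. Leaving out each mouse in turn changed the sign in KO BLM against WT BLM for Eln (-0.036 to 0.97), Fbln1 (-0.12 to 0.65), Fbln5 (-0.0054 to 0.77), Fbn2 (-0.43 to 0.51), Ltbp4 (-0.088 to 0.066) and Mfap4 (-0.14 to 1.13), in WT mice for Fbln1 (-0.16 to 0.61) and Mfap4 (-0.59 to 0.52), and in KO mice for Fbln1 (-0.43 to 0.062), Fbn1 (-0.45 to 0.10) and Mfap4 (-0.40 to 0.47). For the difference it did so for Eln (-0.61 to 0.52), Fbln5 (-0.48 to 0.30) and Mfap4 (-0.53 to 0.74).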
